A study of Mus musculus with 9 samples.

Results

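Neurog1-expressing precursors and CD54-sorted basal cells of the mouse olfactory epithelium were compared by their messenger RNA. The comparison used 2 of the 9 samples of the series, the GBC mRNA and the HBC mRNA library, matched by gene symbol over 21909 symbols. The GBC library held cells of the main olfactory epithelium positive for Neurog1-EGFP, a green fluorescent reporter of the proneural gene Neurog1. The HBC library held cells of the same tissue stained by a phycoerythrin-coupled antibody to CD54, the adhesion protein encoded by Icam1. Both came from mice aged 4 weeks. Poly-A RNA was isolated from both with the same reagents and both libraries had 16 amplification cycles, but ScriptSeq was used for HBC and the Illumina mRNA kit for GBC. There was 1 library a side, so no difference had a replicate check and none was tested. Library kit and cell population cannot be told apart. The labels give neither the promoter construct of the reporter nor the number of mice, and an EGFP reporter can outlast the transcript it reports. CD54 is also carried by leukocytes and activated endothelium, so the antibody does not select basal cells alone. In sorted pools, fewer cells of a type and less RNA per cell cannot be told apart.

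The olfactory epithelium makes new sensory neurons all through adulthood. Horizontal basal cells lie flat on the basal lamina, express the keratins Krt5 and Krt14 and the transcription factor p63 (Trp63), and act as a reserve of stem cells. Globose basal cells lie above them and divide. Their late, neuron-committed members switch on Neurog1 and then Neurod1 before they leave the cell cycle and become immature neurons.

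Gene levels were FPKM, fragments scaled to transcript length and sequencing depth, as deposited. The fragments implied by the deposited intervals added up to 18086991 in GBC and 18123310 in HBC. Genes listed at 0 numbered 2863 in GBC and 4609 in HBC, and read totals were not used here. Ratios were taken as log2 of (FPKM + 1) in GBC over (FPKM + 1) in HBC, so positive values are higher in GBC. A gene was measured when it reached 5 FPKM in either library, which 9101 genes did, and called when it also differed at least 4-fold. Of the measured genes, 1410 (15.5%) were called higher in GBC and 1503 (16.5%) higher in HBC. The median log2 ratio over all measured genes was 0.51, from -0.92 at the 25th to 1.47 at the 75th percentile, and list medians below are to be read against it. With median-of-ratios scaling, which centres that median, 1019 genes were called higher in GBC and 1819 in HBC, so the GBC share of calls was 35.9% in place of 48.4%. A gene that reaches 5 FPKM in 1 library alone is higher there through the filter itself, though not always by 4-fold. The counts of measured list members therefore describe the libraries and support nothing further.

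The differences were steeper towards HBC. At least 16-fold differences were found for 192 measured genes in the GBC direction and 450 in the HBC direction, and at least 64-fold differences for 15 and 70. Of the genes called higher in HBC, 1049 of 1503 were under 1 FPKM in GBC and 74 were listed at 0. Of those called higher in GBC, 564 of 1410 were under 1 FPKM in HBC and 42 were listed at 0. The genes called higher in HBC held 39.8% of that library's summed FPKM, and the genes called higher in GBC held 31.4% of theirs.

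**Figure D1:**
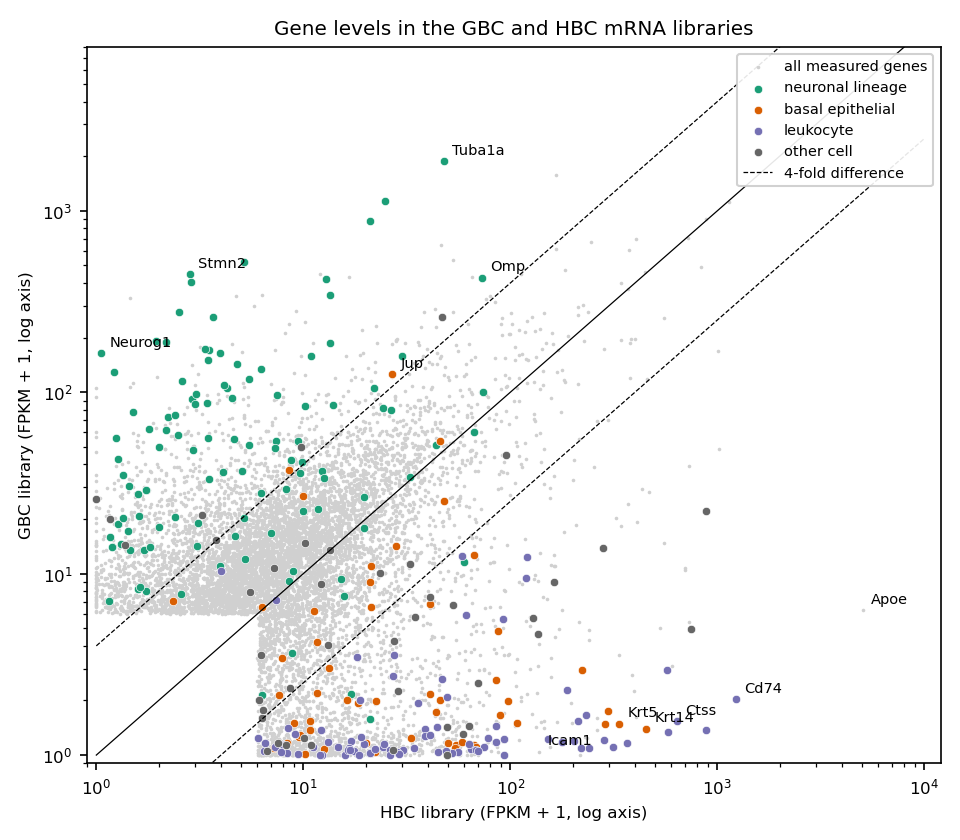
Each point is a measured gene, with its level in the HBC library on the horizontal and in the GBC library on the vertical axis (FPKM + 1, both log axes), and colours mark members of 4 classes of gene lists. Most leukocyte genes and many basal epithelial genes lie along the bottom edge, at or near 0 in GBC. Other basal epithelial genes lie higher, such as Jup at 124 FPKM in GBC. Neuronal lineage genes spread along the left side. The dashed lines mark the 4-fold difference used for calls.

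The marker genes separated the libraries as labelled. Neurog1, the gene behind the reporter, had 162.8 FPKM in GBC (deposited interval 160.3 to 165.2) and 0.0538 FPKM in HBC, where it rested on 2 implied fragments. Icam1, which encodes the CD54 antigen, had 136 FPKM in HBC (interval 133.7 to 139) and 0.0456 FPKM in GBC, from 5 implied fragments. Each of these genes was high in the library sorted on it and close to 0 in the other. Krt14 (chromosome 11, 100064476 to 100068824, mm9) had 451 FPKM in HBC and 0.397 FPKM in GBC, a log2 ratio of -8.34. Krt5 (chromosome 15, 101537501 to 101543322, mm9) had 334.5 FPKM in HBC and 0.493 FPKM in GBC, a log2 ratio of -7.81. Trp63, encoding p63 (chromosome 16, 25683851 to 25892174, mm9), had 49.2 FPKM in HBC and 0.161 FPKM in GBC, a log2 ratio of -5.44. The 3 basal markers were thus high in HBC and under 0.5 FPKM in GBC, and in the library of mature sensory neurons (mOSN) of the same series they had 0.565 (Krt14), 1.175 (Krt5) and 0.297 FPKM (Trp63).

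The start regions of the marker genes differ in base composition, which the choice of genes did not use. Sequences are the 250 bases before the annotated start, from RefSeq on GRCm38.p6, and capitals mark each CG dinucleotide. The order is Neurog1 (chr13:56252181-56252430, minus strand), Krt14 (chr11:100206031-100206280, minus strand) and Krt5 (chr15:101712906-101713155, minus strand).
Neurog1: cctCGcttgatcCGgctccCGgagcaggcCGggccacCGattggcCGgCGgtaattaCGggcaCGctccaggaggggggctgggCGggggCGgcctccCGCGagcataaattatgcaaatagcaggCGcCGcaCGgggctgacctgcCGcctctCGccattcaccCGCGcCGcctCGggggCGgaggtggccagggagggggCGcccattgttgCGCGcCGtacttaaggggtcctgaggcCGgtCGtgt
Krt14: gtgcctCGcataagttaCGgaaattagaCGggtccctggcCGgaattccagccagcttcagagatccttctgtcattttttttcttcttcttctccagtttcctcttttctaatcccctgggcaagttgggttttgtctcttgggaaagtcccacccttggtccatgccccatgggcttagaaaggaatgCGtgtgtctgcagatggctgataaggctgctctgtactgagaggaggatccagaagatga
Krt5: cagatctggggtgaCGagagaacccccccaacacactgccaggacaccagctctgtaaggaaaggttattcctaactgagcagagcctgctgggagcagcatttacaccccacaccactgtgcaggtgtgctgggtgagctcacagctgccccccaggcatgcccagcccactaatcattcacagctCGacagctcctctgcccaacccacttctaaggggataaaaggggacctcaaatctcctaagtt
The upstream stretch held 29 CG dinucleotides for Neurog1, 5 for Krt14 and 2 for Krt5. Windows of 300 bases, from 250 before to 50 after the start, were found for 14710 of the 21909 symbols, 17983 windows in all. Their median was 14 CG dinucleotides, against 21 for measured genes, 18 for genes called higher in GBC and 11 for genes called higher in HBC. By class, the median was 4 for the called leukocyte genes, 10.5 for the called basal epithelial genes and 14 for the called neuronal lineage genes. Windows were found for 60 of 81, 16 of 38 and 56 of 81 genes of these classes. These are descriptions of the windows, without a test.

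Gene lists were grouped into classes by the cells that are known to express them. The HBC library held both basal epithelial and leukocyte genes. The 75 basal epithelial genes made up 1.86% of the HBC library's summed FPKM and 0.206% of that of GBC. The 124 leukocyte genes made up 5.24% in HBC and 0.0488% in GBC. The 125 genes of other cells of the tissue made up 1.91% and 0.347%. A further class of 105 genes, called shared here because basal epithelium and leukocytes can both express them or because they respond to cell stress, with housekeeping and sex-linked genes included, made up 11.5% and 1.89%. The 132 neuronal lineage genes made up 0.575% in HBC and 6.87% in GBC. Lists differ in size and in how many members a cell type expresses, so these shares are not cell proportions.

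**Figure D2:**
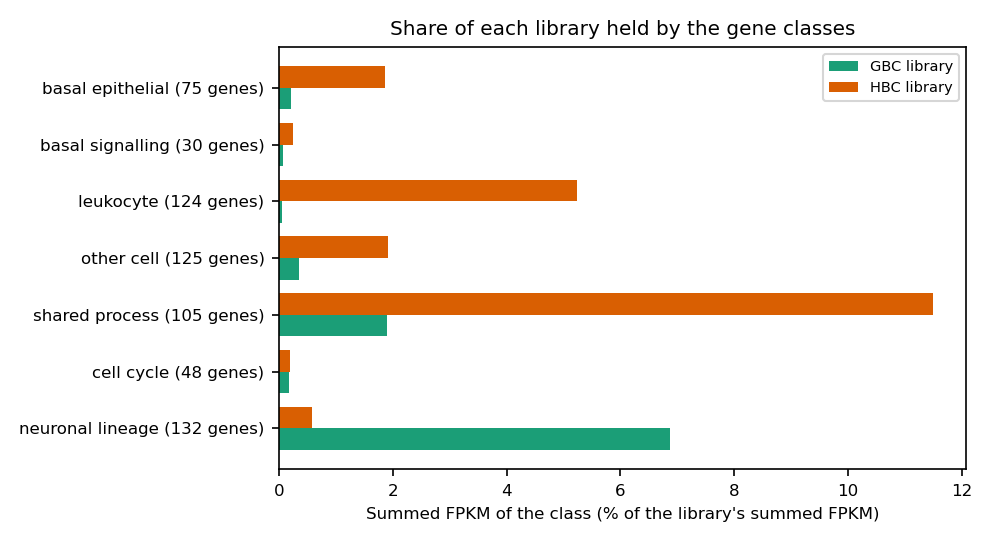
Bars give the summed FPKM of each gene class as a percentage of the summed FPKM of the GBC and the HBC library, with 1 library each and no error. The leukocyte bar of HBC (5.24%) is longer than its basal epithelial bar (1.86%), and the longest bar of GBC is that of the neuronal lineage (6.87%).

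Of the 1503 genes called higher in HBC, most stood in no list. The lists covered 38 basal epithelial, 8 basal signalling, 81 leukocyte, 22 other cell and 73 shared genes, 5 of the cell cycle and 3 of the neuronal lineage, which left 1273 without an assigned source. Among the 50 of them with the highest FPKM, 5 were basal epithelial, 12 leukocyte, 3 other cell and 16 shared genes, and 14 stood in no list. On the GBC side, 1316 of the 1410 genes called higher stood in no list and 81 were neuronal lineage genes. Among the 50 of these with the highest FPKM, 14 were neuronal lineage genes and 35 stood in no list.

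Basal cell identity genes were the most uniform basal epithelial list. Of 16 listed, 14 were measured, all 14 were called higher in HBC, and the median log2 ratio was -5.51. Krt17, a keratin of basal and activated epithelia, had 286 FPKM in HBC and 0.478 FPKM in GBC. Krt15, a keratin of epithelial stem cell layers, had 65.8 FPKM in HBC and 0.144 FPKM in GBC. Sfn, the epithelial 14-3-3 sigma protein, had 297 FPKM in HBC and 0.745 FPKM in GBC. The water and glycerol channel Aqp3 had 219.9 FPKM in HBC and 1.93 FPKM in GBC. The summed level of the listed members was 7.87 FPKM in GBC, 16.2 FPKM in mOSN and 1928 FPKM in HBC, so the list was low in GBC and mOSN.

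Hemidesmosomes tie basal cells to laminin in the basal lamina. Of 17 listed genes of hemidesmosome and basal lamina, 13 were measured and 9 called higher in HBC, none higher in GBC, with a median of -2.80. The beta subunit of the hemidesmosomal integrin, Itgb4, had 52.9 FPKM in HBC and 0.0943 FPKM in GBC. Its partner Itga6 had 21.6 FPKM in HBC and 0.993 FPKM in GBC. Col17a1, the transmembrane collagen of hemidesmosomes, had 57.1 FPKM in HBC and 0.176 FPKM in GBC. The laminin-332 chain gene Lamb3 had 67.6 FPKM in HBC and 0.103 FPKM in GBC. The plakin Plec had 42.5 FPKM in HBC and 0.733 FPKM in GBC. Dst, whose epithelial isoform is a hemidesmosomal plakin and whose other isoforms are made in neurons and muscle, had 27.1 FPKM in HBC and 13.2 FPKM in GBC, under the 4-fold limit. Isoforms were not resolved in the gene tables.

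Cell junction genes were mixed. Of 21 listed, 16 were measured, 8 called higher in HBC and 1 in GBC, with a median of -1.98. E-cadherin (Cdh1) had 45.0 FPKM in HBC and 1.02 FPKM in GBC, and the desmosomal cadherin Dsc3 had 21.3 and 0.0451 FPKM. Perp, a membrane protein of desmosomes, had 87.8 FPKM in HBC and 0.672 FPKM in GBC, and desmoplakin (Dsp) had 65.9 and 11.6 FPKM. Jup, encoding plakoglobin, which serves both desmosomes and adherens junctions, went the other way with 124 FPKM in GBC and 25.8 FPKM in HBC, a log2 ratio of 2.23 that was 1.79 with median-of-ratios scaling. Epcam, a general epithelial adhesion protein, was similar in both libraries at 53.2 FPKM in GBC and 44.6 FPKM in HBC.

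Among 21 listed epithelial transcription and splicing factors, 10 were measured, 7 called higher in HBC and 1 in GBC, with a median of -2.87. Klf5, a factor of proliferating epithelium, had 96.5 FPKM in HBC and 0.994 FPKM in GBC. The circadian and stress-responsive repressor Bhlhe40 had 106 FPKM in HBC and 0.501 FPKM in GBC. The Ets factors Elf3 and Ehf had 39.9 and 17.3 FPKM in HBC, against 1.17 and 0.939 FPKM in GBC. Grhl2, which maintains epithelial junction genes, had 8.64 FPKM in HBC and 0.287 FPKM in GBC. The exception was Esrp1, a splicing factor of epithelial cells, with 36.4 FPKM in GBC and 7.53 FPKM in HBC, a log2 ratio of 2.13 that was 1.72 with median-of-ratios scaling and 1.68 with 1 conversion factor per gene from fragments to FPKM.

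Genes of the EGF family and the Notch pathway had called members in both directions. Of the 19 measured genes in this class, 10.5% were called higher in GBC and 42.1% in HBC. Over all measured genes the shares were 15.5% and 16.5%. Of 11 listed EGF family genes, 6 were measured and 4 called higher in HBC. The receptor Egfr had 12.5 FPKM in HBC and 0.0672 FPKM in GBC, its ligand gene Hbegf had 20.3 and 0.126 FPKM, and the receptor inhibitor Errfi1 had 118 and 4.49 FPKM. The neuregulin gene Nrg1 was called higher in GBC, with 8.37 FPKM against 0.934 FPKM in HBC, a call lost with median-of-ratios scaling (log2 ratio 1.97 in place of 2.28).

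Of 19 listed Notch genes, 13 were measured, 4 called higher in HBC and 1 in GBC, with a median of -1.43. The receptor Notch2 had 23.1 FPKM in HBC and 0.210 FPKM in GBC, and Notch1 had 14.9 and 4.93 FPKM. The Notch target and repressor Hes1 had 50.1 FPKM in HBC and 0.451 FPKM in GBC. The ligand gene Dll1 had 12.6 FPKM in HBC and 0.0783 FPKM in GBC. The Fringe genes, whose enzymes glycosylate Notch receptors, split: Lfng had 25.02 FPKM in HBC and 2.33 FPKM in GBC, a call lost with 1 conversion factor per gene (log2 ratio -1.96), while Mfng had 33.1 FPKM in GBC and 3.46 FPKM in HBC. Leukocytes also express Notch receptors, Hes1 and Mfng, and which cells of the CD54 sort carried these transcripts was not tested.

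Leukocyte genes were higher in HBC almost without exception. Of 124 listed genes in this class, 83 were measured, 81 called higher in HBC and none higher in GBC, with a median of -4.47. The other 2 were the dendritic cell factor Zbtb46, with 9.38 FPKM in GBC and 3.01 FPKM in HBC, and the lymphocyte signalling chain Cd247, with 6.14 and 6.37 FPKM. All 19 pan-leukocyte genes were called higher in HBC. Ptprc, encoding the common leukocyte antigen CD45, had 63.4 FPKM in HBC, 0.0859 FPKM in GBC and 0.101 FPKM in mOSN. Laptm5, a lysosomal protein of blood cells, had 232 FPKM in HBC and 0.674 FPKM in GBC, and Itgb2, the shared beta chain of the leukocyte integrins, had 73.2 and 0.114 FPKM. The GBC library held 89.6 FPKM in all over this class, against 8894 FPKM in HBC and 115 FPKM in mOSN.

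The macrophage and antigen-presentation lists held the highest leukocyte levels. Of 26 listed macrophage and monocyte genes, 25 were measured and all 25 called higher in HBC, with a median of -6.04. The macrophage growth factor receptor Csf1r had 202 FPKM in HBC and 0.195 FPKM in GBC. The complement genes C1qa, C1qb and C1qc, made by tissue macrophages, had 283, 311 and 219 FPKM in HBC and 0.211, 0.108 and 0.0939 FPKM in GBC. Ctss, a protease of antigen-presenting cells (chromosome 3, 95330708 to 95360325, mm9), had 637.5 FPKM in HBC and 0.534 FPKM in GBC. Lyz2, encoding lysozyme, had 573 FPKM in HBC and 1.935 FPKM in GBC, with its near copy Lyz1 listed apart, so their separate values are uncertain. Of 21 listed dendritic cell and MHC class II genes, 15 were measured and 14 called higher in HBC. Cd74, the MHC class II invariant chain, had 1228 FPKM in HBC and 1.03 FPKM in GBC. The class II chain genes H2-Ab1, H2-Aa and H2-Eb1 had 880.3, 575 and 366 FPKM in HBC and were under 0.5 FPKM in GBC.

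Other leukocyte types were present at lower levels. Neutrophil genes were measured for 8 of 16 listed, all called higher in HBC, with S100a9 at 60.2 FPKM in HBC and 4.88 FPKM in GBC. T and NK cell genes were measured for 12 of 18, with 11 called higher in HBC. The CD3 chain genes Cd3e and Cd3g had 18.6 and 25.4 FPKM in HBC, and in GBC Cd3e had 0.155 FPKM and Cd3g was listed at 0. B and plasma cell genes reached 5 FPKM in 2 of 13, Cd79a at 7.39 FPKM and Igj at 11.2 FPKM in HBC. Among 12 genes of mast cells, basophils and eosinophils, the mast cell genes Cpa3 and Mcpt4 had 0.704 and 0.179 FPKM in HBC, and 2 genes were measured, Mcpt8 at 5.46 FPKM and Hpgds, which macrophages express too, at 15.8 FPKM.

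A short sequence common near the starts of leukocyte genes gives this class a feature that its expression values did not use. The letters AGGAAGT, a core bound by Ets factors such as the myeloid factor PU.1, were searched on both strands. They stood in 9.07% of all 17983 windows, 8.88% of windows of measured genes, 6.31% for genes called higher in GBC and 13.8% for genes called higher in HBC. The share was 35.1% of the 74 windows of the called leukocyte genes and 0% of the 18 windows of the called basal epithelial genes. A match is no evidence that a factor binds there, and none was tested. The called leukocyte genes with a single window and the largest ratios among those with a match in the last 150 bases before the start were C1qb (chr4:136886201-136886350, minus strand), Lyz2 (chr10:117282273-117282422, minus strand) and the cytoskeletal adaptor gene Hcls1 (chr16:36934833-36934982, plus strand). They are shown with the match in capitals, on either strand.
C1qb: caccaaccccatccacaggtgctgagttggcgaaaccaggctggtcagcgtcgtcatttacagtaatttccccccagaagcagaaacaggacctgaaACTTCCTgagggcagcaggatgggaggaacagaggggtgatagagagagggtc
Lyz2: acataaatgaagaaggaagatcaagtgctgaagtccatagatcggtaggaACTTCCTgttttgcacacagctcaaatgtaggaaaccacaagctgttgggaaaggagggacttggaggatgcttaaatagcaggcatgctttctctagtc
Hcls1: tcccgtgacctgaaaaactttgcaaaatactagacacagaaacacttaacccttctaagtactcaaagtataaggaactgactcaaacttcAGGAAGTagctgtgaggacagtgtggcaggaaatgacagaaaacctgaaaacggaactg
The match began 53 bases before the start in C1qb, 100 in Lyz2 and 59 in Hcls1. In HBC these genes had 311, 573 and 67.2 FPKM.

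**Figure D3:**
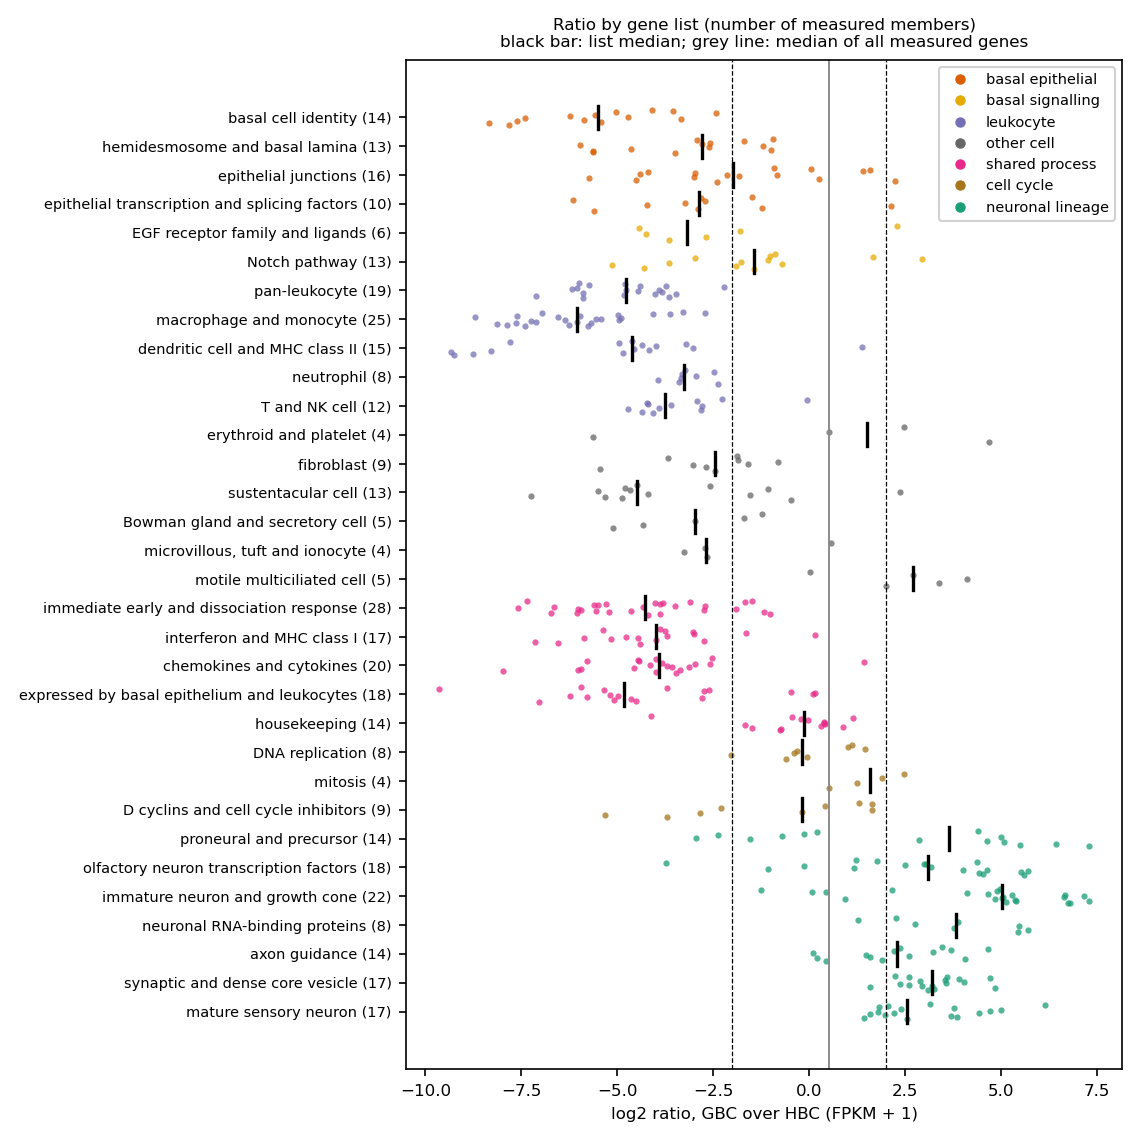
Each point is the log2 ratio of GBC over HBC (FPKM + 1) of a measured list member, in rows by list with the number measured in parentheses and coloured by class. Black bars are list medians, dashed lines the 4-fold limits and the grey line the median of all measured genes (0.51). Leukocyte and basal identity rows lie left of the limit almost whole, while the rows of junction, Notch and cyclin genes span both sides.

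Genes of the other cells of the olfactory mucosa were uneven. Sustentacular cells, the supporting cells of the epithelium, are rich in detoxifying enzymes. Of 17 listed genes, 13 were measured, 9 called higher in HBC and 1 in GBC, with a median of -4.49. The cytochrome P450 gene Cyp2f2 had 747.5 FPKM in HBC, 3.97 FPKM in GBC and 14.3 FPKM in mOSN, and the carbonyl reductase gene Cbr2 had 881, 21.2 and 46.4 FPKM. Cyp2g1, a P450 of the olfactory mucosa, had only 11.1 FPKM in HBC, 7.76 FPKM in GBC and 46.1 FPKM in mOSN. The sulfotransferase gene Sult1d1 had 48.9 FPKM in GBC and 8.75 FPKM in HBC, but its log2 ratio of 2.36 turned to -0.42 with 1 conversion factor per gene. The members of this list were therefore not high in HBC in step with each other.

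Genes of the Bowman glands, which secrete mucus, were called higher in HBC in 3 of 5 measured of 13 listed. Plunc, a secreted airway protein, had 279 FPKM in HBC and 12.9 FPKM in GBC, and the gland water channel Aqp5 had 48.2 and 0.431 FPKM. Fibroblast genes were called higher in HBC in 5 of 9 measured, with the proteoglycan gene Dcn at 62.1 FPKM in HBC and 0.446 FPKM in GBC. The collagen gene Col1a1 had 39.9 FPKM in HBC and 6.402 FPKM in GBC, a call lost with 1 conversion factor per gene (log2 ratio -1.04 in place of -2.46).

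Endothelium, which also carries CD54 when activated, left a weak trace. Of 18 endothelial genes, 14 reached 1 FPKM in HBC, but only the fenestral diaphragm gene Plvap reached 5 FPKM, with 7.22 FPKM in HBC and 0.135 FPKM in GBC, a call lost with 1 conversion factor per gene (log2 ratio -1.89). The endothelial cadherin gene Cdh5 had 1.84 FPKM in HBC and the VEGF receptor gene Kdr 1.58 FPKM. Of 12 genes of Schwann and ensheathing glia, 1 was measured, the myelin gene Mbp, with 13.7 FPKM in GBC and 9.22 FPKM in HBC, while the lineage factor Sox10 had 0.559 FPKM in HBC and 0.0376 FPKM in GBC. The tuft cell genes Trpm5 and Pou2f3 were under 1 FPKM in both. The 3 genes of that list called higher in HBC, Plcb2, Ltc4s and Alox5, at 5.66, 9.95 and 6.58 FPKM in HBC, are also expressed by leukocytes. Of 13 motile multiciliated cell genes, 5 were measured, 4 called higher in GBC and none in HBC. The ciliary tektin gene Tekt1 had 13.3 FPKM in GBC and 0.374 FPKM in HBC. Not all members of this list were high in GBC, where Dnahc5 had 1.69 FPKM and Ccno 1.20 FPKM. The master gene of motile cilia, Foxj1, had 14.4 FPKM in GBC and 2.81 FPKM in HBC, a log2 ratio of 2.01 that was 1.64 with median-of-ratios scaling. In mOSN Tekt1 (28.04 FPKM) and Foxj1 (45.8 FPKM) were higher than in GBC, as was Rsph1, with 37.91 FPKM against 19.96 FPKM. Tekt2, with the largest ratio of the list, went the other way. It had 18.99 FPKM in GBC, 0.160 FPKM in HBC and 1.218 FPKM in mOSN.

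Red cell genes differed as well, with Beta-s, a beta globin, at 259.6 FPKM in GBC and 45.6 FPKM in HBC. The alpha globin copies Hba-a1 and Hba-a2 are near identical. Hba-a1 held 24.8 FPKM in GBC and Hba-a2 held 48.4 FPKM in HBC, each with almost nothing for its copy, so their separate values are uncertain.

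**Figure D4:**
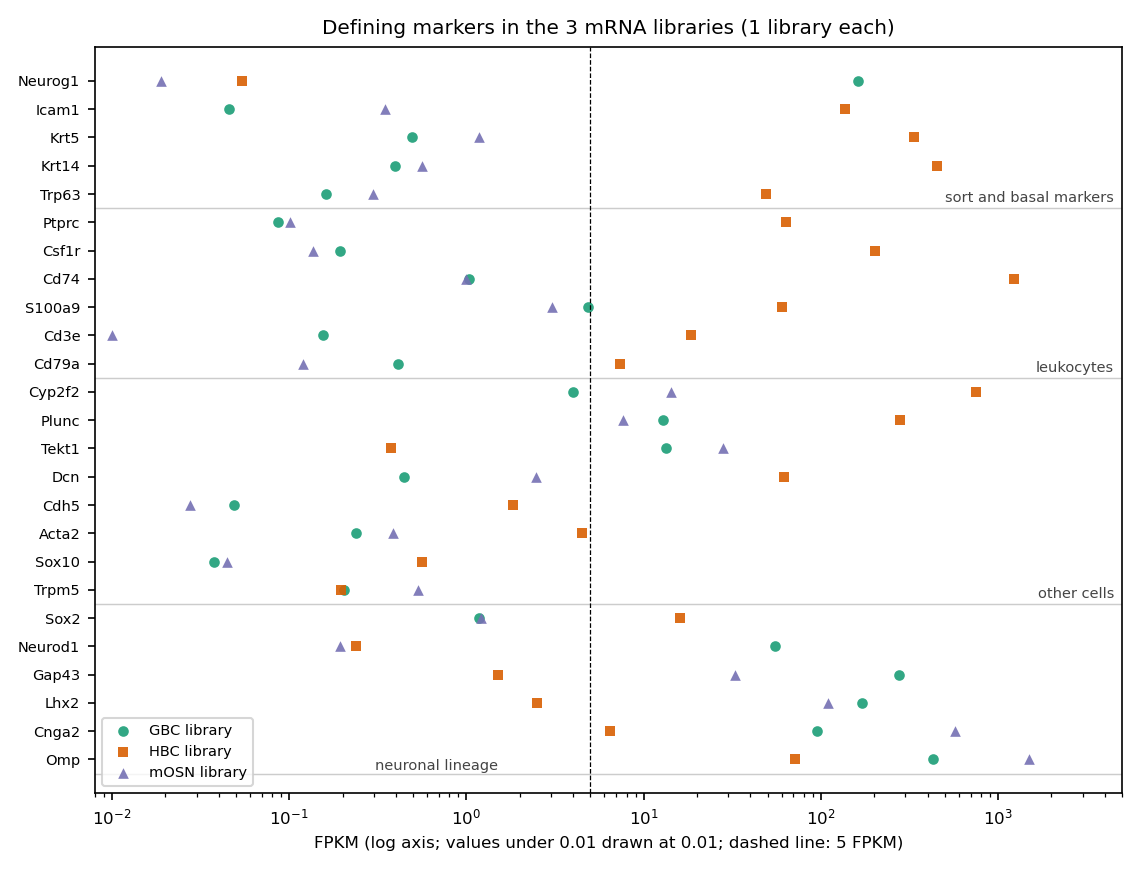
FPKM (log axis) of defining markers in the GBC, HBC and mOSN libraries, 1 library each, with values under 0.01 drawn at 0.01 and a dashed line at 5 FPKM. Squares (HBC) are far to the right of the other libraries for basal and leukocyte markers, while Cdh5, Acta2, Sox10 and Trpm5 stay left of the dashed line in every library.

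Genes that basal epithelium and leukocytes can both express cannot be assigned to a source from these libraries. Of 18 such genes, all measured, 15 were called higher in HBC, with a median of -4.81. Apoe, the lipid carrier made by macrophages and by many epithelial and glial cells (chromosome 7, 20281593 to 20284515, mm9), had the highest level of any gene in HBC at 5045 FPKM, with 5.28 FPKM in GBC and 9.71 FPKM in mOSN. Its log2 ratio of -9.65 was the largest in size at 20 FPKM or more. The hyaluronan receptor gene Cd44 had 28.1 FPKM in HBC and 0.270 FPKM in GBC, and the annexin gene Anxa2 had 84.3 and 0.550 FPKM. The exceptions were Vim, Cd9 and Cd47, with the intermediate filament gene Vim at 204 FPKM in GBC and 190 FPKM in HBC. The calcium-binding S100a6 had 126 FPKM in HBC and 0.680 FPKM in GBC. Macrophage markers were at a median of 91.9 FPKM and basal identity genes at 59.7 FPKM in the same HBC library, and their part in these levels was not tested.

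Immediate early genes, which are switched on within minutes of a stimulus and also by tissue dissociation, were called higher in HBC in 23 of 28, all measured, with a median of -4.27. Fos had 727 FPKM in HBC, 38.4 FPKM in GBC and 108 FPKM in mOSN. The related gene Fosb had 701 FPKM in HBC and 9.53 FPKM in GBC, and the stress factor gene Atf3 had 527 and 3.99 FPKM. Zfp36, whose protein destabilises cytokine transcripts, had 600.5 FPKM in HBC and 2.102 FPKM in GBC. Jun, the partner of Fos in the AP-1 dimer, differed less, with 398 FPKM in HBC and 194 FPKM in GBC. The listed genes summed to 7379 FPKM in HBC, 588 FPKM in GBC and 748 FPKM in mOSN. The labels do not give the duration of each sort, and its part was not tested.

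Cytokine and interferon-related genes followed the same direction. Of 22 chemokine and cytokine genes listed, 20 were measured and 19 called higher in HBC. Il1b, an inflammatory cytokine of myeloid cells, had 403 FPKM in HBC and 0.615 FPKM in GBC, and the chemokine gene Ccl4 had 74.9 and 0.230 FPKM. Of 18 interferon and MHC class I genes, 17 were measured and 15 called higher in HBC, with a median of -3.99. B2m, the light chain of MHC class I, had 406.5 FPKM in HBC, 18.4 FPKM in GBC and 10.7 FPKM in mOSN. The class I heavy chain genes H2-K1 and H2-D1 had 334 and 387 FPKM in HBC and 2.58 and 1.75 FPKM in GBC. These genes are similar in sequence, so their separate values are uncertain.

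Windows of the called immediate early, interferon, cytokine and shared genes held the letters TATAAA, the core of a promoter element that positions many starts, on either strand in 33.8% of 71 windows, against 12.2% of all windows, 7.16% for measured genes, 8.47% for genes called higher in GBC and 10.8% for genes called higher in HBC. The genes with the largest ratios by the same choice were Il1b (chr2:129371140-129371289, minus strand) and H2-D1 (chr17:35262944-35263093, plus strand), shown over 150 bases before the start with the match in capitals.
Il1b: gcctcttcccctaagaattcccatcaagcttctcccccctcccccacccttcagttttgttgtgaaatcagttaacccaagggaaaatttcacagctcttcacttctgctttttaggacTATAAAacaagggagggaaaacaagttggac
H2-D1: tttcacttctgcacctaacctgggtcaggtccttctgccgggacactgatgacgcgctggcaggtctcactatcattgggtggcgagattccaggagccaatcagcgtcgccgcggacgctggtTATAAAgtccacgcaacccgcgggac
The match began 31 bases before the start in Il1b and 26 bases before it in H2-D1. These values describe the windows only.

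Among the lists grouped into classes, genes of neurite growth held the largest share of the GBC library, 3.43% of its summed FPKM. Of 22 immature neuron and growth cone genes, all measured, 18 were called higher in GBC and none in HBC, with a median of 5.04. Tubb3, the neuronal beta tubulin, had 407 FPKM in GBC and 1.87 FPKM in HBC, and Tubb2b had 523.5 and 4.18 FPKM. Dpysl5, a collapsin response mediator of growth cones, had 192 FPKM in GBC and 0.935 FPKM in HBC. Gng8, a G protein gamma subunit of immature olfactory neurons, had 129 FPKM in GBC and 0.219 FPKM in HBC. The microtubule-associated doublecortin gene Dcx had 61.7 FPKM in GBC and 0.788 FPKM in HBC. In mOSN Tubb3 had 86.01 FPKM, Tubb2b 26.8 FPKM and Gng8 2.001 FPKM, below GBC in each.

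Proneural and precursor genes were split. Of 18 listed, 14 were measured, 8 called higher in GBC and 2 in HBC, with a median of 3.64. The helix-loop-helix genes that act with or after Neurog1 were high in GBC, with Nhlh1 at 188 FPKM against 1.18 FPKM in HBC, Neurod1 at 55.0 against 0.239 FPKM and Nhlh2 at 42.01 against 0.278 FPKM. Insm1, a zinc-finger gene of neuronal progenitors that leave the apical cell cycle, had 48.8 FPKM in GBC and 1.01 FPKM in HBC. Sox2, a factor of stem and supporting cells, was called higher in HBC with 15.9 FPKM against 1.18 FPKM in GBC. Gadd45g was called higher in HBC too, with 58.6 FPKM against 10.5 FPKM in GBC, a call lost with 1 conversion factor per gene (log2 ratio -0.94 in place of -2.37). The stem cell gene Sox2 was thus low in GBC, while the genes of late precursors were high.

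Transcription factors of the olfactory neuron lineage were called higher in GBC in 12 of 18, all measured, with 1 called higher in HBC. The homeodomain gene Emx2 had 56.8 FPKM in GBC and 1.48 FPKM in HBC. The Ebf genes, whose products bind near olfactory neuron genes, had 117 (Ebf1), 173 (Ebf2), 104.5 (Ebf3) and 54.95 FPKM (Ebf4) in GBC, and 4.46, 2.34, 3.27 and 2.47 FPKM in HBC. Uncx, a homeodomain gene of the lineage, had 92.5 FPKM in GBC and 3.51 FPKM in HBC. Runx1, which neuronal precursors and blood cells both use, was the exception at 19.9 FPKM in HBC and 0.586 FPKM in GBC, and its source among the sorted cells was not tested.

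The letters CCCNNGGG, the palindromic core recognised by Ebf proteins, stood in 16.1% of all windows, 18.2% for measured genes, 19.9% for genes called higher in HBC and 20.5% for genes called higher in GBC. The share was 28.6% of the 91 windows of the called neuronal lineage genes and 27.8% of the 18 windows of the called basal epithelial genes. It was 18.3% for called shared genes and 14.9% for called leukocyte genes. A high share was thus not particular to the neuronal lineage class. By the same choice as above, the genes with the largest ratios were Dpysl5 (chr5:30711414-30711563, plus strand), Nhlh1 (chr1:172057597-172057746, minus strand) and Dbn1, encoding the actin-binding drebrin (chr13:55488077-55488226, minus strand), shown over 150 bases before the start with matches in capitals.
Dpysl5: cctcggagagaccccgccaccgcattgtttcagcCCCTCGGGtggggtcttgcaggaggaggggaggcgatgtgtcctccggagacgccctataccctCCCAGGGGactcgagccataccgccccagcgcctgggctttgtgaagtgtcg
Nhlh1: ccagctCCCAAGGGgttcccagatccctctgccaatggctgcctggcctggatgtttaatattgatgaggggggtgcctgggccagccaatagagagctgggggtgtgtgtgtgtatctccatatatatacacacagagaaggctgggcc
Dbn1: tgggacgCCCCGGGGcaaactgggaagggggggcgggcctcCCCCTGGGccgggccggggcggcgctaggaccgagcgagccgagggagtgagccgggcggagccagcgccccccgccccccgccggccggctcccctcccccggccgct
There were 2 matches in Dpysl5, 1 in Nhlh1 and 2 in Dbn1. No match says nothing about Ebf proteins beyond these letters, and a match is not a site of binding.

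Genes of later neuronal functions were also high in the Neurog1-EGFP library. Of 15 neuronal RNA-binding protein genes, 8 were measured and 7 called higher in GBC, with Elavl4 at 77.3 FPKM against 0.506 FPKM in HBC and Elavl3 at 149 against 2.48 FPKM. The splicing regulator Srrm4 had 17.8 FPKM in GBC and 0.269 FPKM in HBC. Of 23 synaptic and dense core vesicle genes, 17 were measured and 16 called higher in GBC, among them Stx1a at 60.8 against 1.17 FPKM and the granin gene Scg2 at 34.0 against 0.342 FPKM. Of 17 axon guidance genes, 14 were measured and 8 called higher in GBC. The Slit receptor gene Robo2 had 27.9 FPKM in GBC and 0.741 FPKM in HBC, while the semaphorin receptor gene Nrp1 was similar at 25.4 and 18.6 FPKM.

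Mature sensory neuron genes were called higher in GBC in 12 of 17 measured of 19 listed, with a median of 2.56. The olfactory marker protein gene Omp had 427 FPKM in GBC, 71.6 FPKM in HBC and 1487 FPKM in mOSN. The olfactory channel gene Cnga2 had 95.5, 6.44 and 570.0 FPKM in the same order. The listed genes summed to 1820 FPKM in GBC, 189 FPKM in HBC and 12315 FPKM in mOSN. Transcripts of mature neurons were thus present in both libraries compared here, and their part in the neuronal differences was not tested.

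Cell cycle genes differed by list. Of 48 listed, 21 were measured, 1 called higher in GBC and 5 in HBC (Mcm3, Cdk6 and the D cyclins). These were 4.76% and 23.8% of the measured members, against 15.5% and 16.5% over all measured genes. The class median was 0.42, close to the 0.51 of all measured genes. It was -0.23 with median-of-ratios scaling and -0.055 with 1 conversion factor per gene. For DNA replication, Pcna had 18.0 FPKM in GBC and 18.6 FPKM in HBC and Mcm2 had 4.18 and 6.87 FPKM, and the 18 listed genes summed to 76.2 and 77.8 FPKM. The 17 listed mitosis genes summed to 72.6 FPKM in GBC and 20.2 FPKM in HBC, with a median of 1.58 over the 4 measured. Among them, Mki67 had 6.54 FPKM in GBC and 4.27 FPKM in HBC, and Top2a had 9.57 and 3.44 FPKM. The ubiquitin-conjugating enzyme gene Ube2c, the 1 called gene, had 11.7 and 1.31 FPKM. The D-type cyclins, which start the cycle in response to growth signals, were higher in HBC, with Ccnd1 at 41.3 against 2.24 FPKM, Ccnd2 at 42.8 against 0.0908 FPKM and Ccnd3 at 22.4 against 2.24 FPKM, though the call of Ccnd3 was lost with 1 conversion factor per gene (log2 ratio -1.83). The call of Mcm3 was lost with the same alternative (log2 ratio -1.99) and with housekeeping scaling (-1.94). The inhibitor Cdkn1a was similar at 44.2 FPKM in GBC and 50.3 FPKM in HBC. Macrophages and lymphocytes express D cyclins too, and the source in HBC was not tested.

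Most measured keratins and integrins were called higher in HBC. All 12 measured keratins of 51 were called higher in HBC, with basal Krt5, Krt14, Krt15 and Krt17 joined by Krt19 at 93.4 FPKM in HBC and 0.198 FPKM in GBC. Krt18, a keratin of simple epithelia that is listed here with sustentacular cells, had 127 FPKM in HBC and 4.72 FPKM in GBC. The integrins higher in HBC mixed both sources: Itgb4 of hemidesmosomes, described above, stood beside the leukocyte chains Itgb2, Itgam at 48.4 FPKM and Itgax at 27.9 FPKM in HBC, each under 0.2 FPKM in GBC. Of the 16 measured genes that matched the integrin pattern, 14 were called higher in HBC, and the other 2 were Itga3, with 20.2 FPKM in HBC and 5.54 FPKM in GBC, and Itgb1bp1, which encodes an integrin-binding protein and had 8.17 FPKM in GBC and 2.95 FPKM in HBC.

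Claudins, the sealing proteins of tight junctions, went both ways. Of 7 measured, 3 were called higher in GBC and 2 in HBC, beside 15.5% and 16.5% of all measured genes. Cldn4 had 86.5 FPKM in HBC and 3.81 FPKM in GBC, and Cldn11 had 9.64 and 0.0283 FPKM. Cldn3 had 90.4 FPKM in GBC and 4.11 FPKM in HBC, and Cldn9 had 56.3 and 1.37 FPKM. The gap junction gene Gja1 had 29.3 FPKM in HBC and 0.309 FPKM in GBC. Among collagens, 11 of 15 measured were called higher in HBC and 1 in GBC, Col9a2, with 28.2 FPKM in GBC and 0.224 FPKM in HBC.

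Cytoskeletal and excitability families leaned to GBC. Their counts stand beside shares of 15.5% called higher in GBC and 16.5% in HBC over all measured genes. Of 11 measured tubulins, 6 were called higher in GBC and 1 in HBC, Tubb6, with 19.1 FPKM in HBC and 0.917 FPKM in GBC. Tuba1a had the highest level of any gene in GBC at 1871 FPKM, with 46.7 FPKM in HBC. The axonal kinesin genes Kif1a and Kif5c had 89.1 and 58.9 FPKM in GBC and 2.93 and 1.75 FPKM in HBC. Of 6 measured calcium channel genes, 5 were called higher in GBC and none in HBC, with Cacna1b, the N-type channel, at 21.5 against 0.640 FPKM. All 7 measured synaptotagmins were called higher in GBC. Of 17 potassium channel genes, 9 were called higher in GBC and 5 in HBC, where the inward rectifier Kcnj16 had 23.9 FPKM against 0.0274 FPKM in GBC.

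Clustered histone genes were called higher in GBC in 23 of 28 measured and in HBC in none, with Hist2h2be at 242 FPKM in GBC and 9.15 FPKM in HBC. Most replication-dependent histone transcripts lack a poly-A tail, and the libraries were made with different kits, so kit and population cannot be told apart for this family. Over all measured genes, 15.5% were called higher in GBC and 16.5% in HBC. Of 61 measured ribosomal protein genes, 8 were called higher in GBC and 3 in HBC. They included Rps16 at 14.1 FPKM in GBC and 0.470 FPKM in HBC and Rpl29 at 1.75 and 42.4 FPKM, members of families with many processed copies whose separate values are uncertain. Of 14 housekeeping genes, 1 was called, Gusb, with 31.6 FPKM in HBC and 0.863 FPKM in GBC, and the list's median was -0.13.

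**Figure D5:**
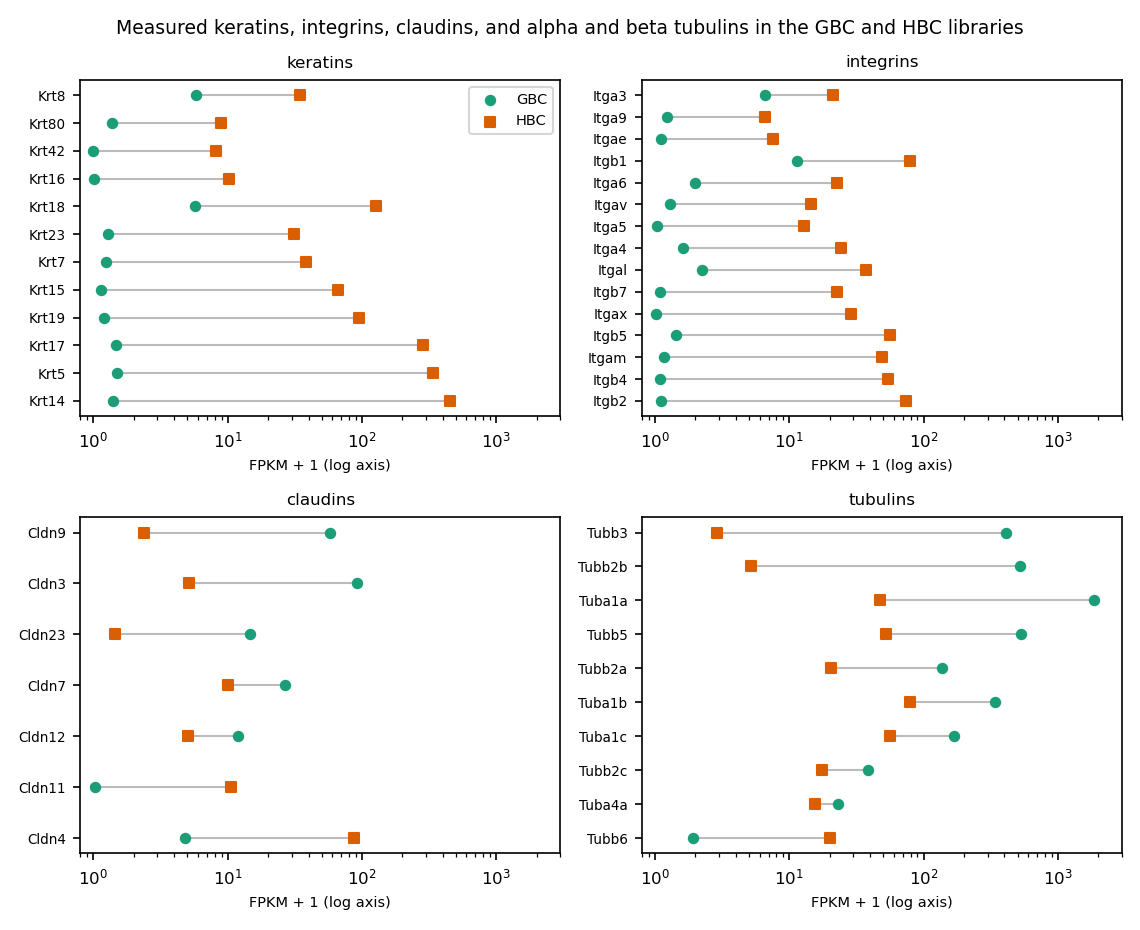
Levels of the measured keratins, integrin chains (without the integrin-binding protein gene Itgb1bp1), claudins and alpha and beta tubulins in GBC (circles) and HBC (squares), as FPKM + 1 on log axes, with a line joining the 2 libraries of a gene. Every keratin and integrin chain shown is higher in HBC, the claudins point both ways, and all tubulins shown but Tubb6 are higher in GBC.

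The largest ratios outside the lists added further names. Among genes at 20 FPKM or more, Tubb2a-ps2, a tubulin pseudogene near identical to Tubb2a and therefore uncertain, had 328 FPKM in GBC and 0.455 FPKM in HBC. The forebrain and olfactory zinc-finger gene Fezf1 had 119.9 FPKM in GBC and 0.954 FPKM in HBC, and the retinoid-binding Crabp1 had 298 and 4.77 FPKM. Uchl1, a neuronal deubiquitinase, had 341 FPKM in GBC and 5.31 FPKM in HBC. In the other direction stood Epas1, the hypoxia-inducible factor HIF-2 alpha, with 396 FPKM in HBC and 1.25 FPKM in GBC, and F3, tissue factor, with 234 and 0.245 FPKM. Tgm2, a transglutaminase of macrophages, endothelium and epithelium, had 228 FPKM in HBC and 0.258 FPKM in GBC. Bcl2a1b, a survival gene of leukocytes with near-identical copies, had 216 FPKM in HBC and was listed at 0 in GBC, so no ratio is given.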

How the data were processed

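Poly-A RNA of 2 sorted populations was compared, 1 library each, grouped by sample title, and the mOSN library is quoted for reference. The antibody-enriched DNA samples of the series were left out. Per the file headers, each table deposited by the authors lists FPKM per gene with bounds and a status. Bowtie, TopHat, Cufflinks and mouse build mm9 are named in the submitters' processing notes. Versions, options and annotation: not given in the sources used here. Rows of 1 symbol (222 of 21909 symbols) were summed. Status FAIL was carried by 19 rows in GBC and 8 in HBC and LOWDATA by 247 in each, and these rows kept their FPKM. Implied fragments were the square of 2 times FPKM over the upper half-width of the interval. They cover counting error only, since PCR reads without molecular identifiers are not independent molecules.

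Ratios used a pseudocount of 1 FPKM and so understate differences of weakly expressed genes. Calls required 5 FPKM in either library and a log2 ratio of at least 2. No p-value was computed. Members and lists were chosen with earlier results of these data known. The 38 symbol lists and 24 families matched 639 of 642 listed symbols, 12 through synonyms.

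Named genes were Neurog1, Icam1, Krt5 and Krt14, the first 4 symbols of each list, up to 4 more per list or family of at least 5 FPKM with the largest absolute ratios, up to 3 per list called against its median, and the 25 largest ratios per direction at 20 FPKM or more. Genes named beyond that rule (Lyz1, Krt18, Zbtb46, Cd247, Vim, Cd9, Cd47, Itga3, Itgb1bp1, Tubb2a and Dbn1) were chosen after their values were seen. Some genes of the rule are not reported here. Motifs were searched on both strands of the 300-base RefSeq windows (GRCm38.p6), while expression coordinates are mm9. The alternatives were pseudocounts of 0.1 and 5 FPKM, no filter, a filter at 20 FPKM, 4 rescalings, the highest row per symbol, FAIL and LOWDATA rows left out, 1 conversion factor per gene, and calls limited to intervals that do not overlap. The calling script was tested on simulated data. Python 3.11.15, numpy 2.4.6, pandas 2.3.3 and matplotlib 3.10.9 were used.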

Additional observations from a re-analysis of the deposited data

How the results depend on the processing

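The counts of called genes, 1410 in GBC and 1503 in HBC, were within 1.5-fold under 10 of 12 alternatives. They were 504 and 643 with a pseudocount of 5 FPKM and 663 and 638 with a filter at 20 FPKM, which tests fewer genes. Under those settings, in that order, basal epithelial genes called higher in HBC were 25 and 24 in place of 38. Leukocyte genes called higher in HBC were 61 and 54 in place of 81, and shared genes 60 and 55 in place of 73. Other cell genes called higher in HBC were 14 and 17 in place of 22. Neuronal lineage genes called higher in GBC were 63 and 63 in place of 81. Class medians kept their sign except that of the cell cycle, which was -0.23 with median-of-ratios scaling, -2.85 with the filter at 20 FPKM, -0.08 with a common sum that leaves out the leukocyte, other cell and immediate early lists, and -0.055 with 1 conversion factor per gene. With a pseudocount of 0.1 FPKM medians were -4.50 (basal epithelial), -2.46 (basal signalling), -6.84 (leukocyte), 3.96 (neuronal lineage) and -5.43 (shared). With a pseudocount of 5 FPKM they were -1.75, -1.01, -2.74, 2.29 and -2.48 in that order, and -1.17 for other cells. Without a filter they were -2.40 (basal epithelial), -1.05 (basal signalling), -3.43 (leukocyte) and -0.68 (other cells). With the filter at 20 FPKM they were -4.69, -3.60, -5.71 and -4.19 in that order, and 4.41 for the neuronal lineage. A larger pseudocount shrinks every ratio by construction. Of 371 genes in the naming rule, 266 kept their call under all 12 alternatives. With a pseudocount of 5 FPKM 66 of the 371 lost their call, and with the filter at 20 FPKM 75 did. Among genes named above, Egfr, Grhl2, Ehf, Dll1 and Cldn11, called higher in HBC, lost their call under both settings. So did Nrg1, Tekt1 and Rps16, called higher in GBC. The ratio of Sult1d1 reversed to -0.42 with 1 conversion factor per gene, and the median of the claudin list to -0.035 with no filter; the cause was not tested. Across 10133 genes, the ratio of GBC to HBC in fragments behind 1 FPKM varied 8.17-fold between its 5th and 95th percentiles. No left-out library was possible with 1 library a side, and no paired analysis was possible because each side has 1 library.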

Other observations

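Sex-linked genes are given as values. Xist had 34.4 FPKM in GBC, 30.7 in HBC and 66.7 in mOSN. The Y-linked Eif2s3y had 16.2 FPKM in GBC and 2.54 in HBC and was listed at 0 in mOSN, and Ddx3y had 2.25 FPKM in GBC and 4.44 in HBC. The labels used here do not give the sex or the number of the mice. The ratio of Eif2s3y between GBC and HBC was not stable, with a log2 value of 2.28 as deposited and 0.33 when each gene had a single conversion factor in both libraries.

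Of the called genes that stood in no symbol list, the 4 with the highest levels in each direction were chosen after their values were seen. In HBC they were Lars2, Fth1, 5430413K10Rik and Cst3. Lars2, encoding the mitochondrial leucyl-tRNA synthetase, had 1016 FPKM in HBC and 47.5 in GBC. The ferritin heavy chain gene Fth1 had 1003 and 169 FPKM, 5430413K10Rik had 727 and 4.38 FPKM, and the protease inhibitor gene Cst3 had 468 and 27.1 FPKM. In GBC they were Ptma, the prothymosin gene, with 1581 FPKM against 165.5 in HBC, Gm581 with 649 against 45.1 FPKM, the beta tubulin gene Tubb5 with 533 against 51.7 FPKM, and the pyruvate kinase gene Pkm2 with 450.4 against 111.5 FPKM.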
